A study of Mus musculus with 5 samples.

Results

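The genes Ifng, Tbx21, Eomes, Ncr1, Il12rb2 and Klrk1 of the type 1 programme of lymphocytes were described across the cell classes of 4 single-cell libraries of mouse kidney and small intestine. These 6 genes were picked by name out of the 31253 genes of the count matrices, and all 6 were found in each library. Levels and joint detection of the 6 genes were read in cells resembling group 1 innate lymphoid cells (ILC1), natural killer (NK) cells and T cells of the kidney, and in subsets of intestinal group 3 innate lymphoid cells (ILC3).

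The kidney libraries came from a mouse strain labelled B6.Cg-Pdcd1tm1.1Shr/J, in which the PD-1 gene Pdcd1 is named as the altered gene, 3 days after unilateral ureteral obstruction (UUO), and from wild-type mice 14 days after UUO. The intestinal libraries came from wild-type mice 3 days after UUO and from wild-type mice after sham surgery. All mice were males of 8 to 10 weeks. In UUO the left ureter was tied and cut, which blocks the outflow of urine from that kidney; in sham surgery the ureter was only exposed. The kidney cells were sorted as innate lymphoid cells and the intestinal cells as ILC3s, and the libraries were made on the BD Rhapsody system. Each group was 1 library, how many mice went into a library is unknown here, and a further wild-type kidney library of day 3 was not used here. The extraction text of the labels speaks of pulmonary artery, an organ that no library is labelled with. Genotype and day differ together between the kidney libraries, so their parts cannot be told apart, and with 1 library per group no difference was tested.

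In type 1 immunity, interleukin-12 and interleukin-18 from antigen-presenting cells act on NK cells, ILC1s and T cells, which answer with interferon-gamma. The inducible chain of the interleukin-12 receptor is encoded by Il12rb2 and the cytokine interferon-gamma by Ifng. T-bet (Tbx21) and Eomesodermin (Eomes) are related T-box transcription factors: T-bet drives Ifng in ILC1s, NK cells and T helper 1 cells, and mouse NK cells express Eomes, whereas ILC1s of many tissues express little of it. NKp46 (Ncr1) is an activating receptor of NK cells, ILC1s and the NCR-positive subset of ILC3s, a subset that depends on T-bet in the mouse gut. NKG2D (Klrk1) is an activating receptor that binds stress-induced ligands and is found on NK cells, CD8 T cells and some innate lymphoid cells.

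All coordinates are those of GRCm38 with the GENCODE vM21 annotation and span the whole gene. Ifng lies at chr10:118441046-118445892 on the plus strand, Tbx21 at chr11:97098071-97115331 on the minus strand, and Eomes at chr9:118478212-118486132 on the plus strand. Ncr1 lies at chr7:4337724-4345164 on the plus strand, Il12rb2 at chr6:67291318-67376188 on the minus strand and Klrk1 at chr6:129610323-129623864 on the minus strand. Il12rb2 overlaps Serbp1 on the other strand, a gene with 32761 UMIs over the 4 libraries, and no source used here gives the strand setting of the counting, so the Il12rb2 values are uncertain. Eomes overlaps Gm33460, which had 29 UMIs in all.

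Since T-bet and Eomes bind the same T-box core, and RUNX3 is a partner of T-bet at Ifng, the start-site windows of the 6 genes were searched for the T-box core GTGTGA and the RUNX core TGTGGT, each on both strands. The windows are RefSeq sequences of GRCm38.p6 that run from 250 bases before to 50 bases after a gene's start, and all 6 genes matched a window by symbol. A window of each of the 3 genes with a match is shown 5′ to 3′ along the gene's strand, with T-box and RUNX cores in capitals, reverse complements included (TCACAC and ACCACA).
Ncr1, chr7:4337465-4337764, plus strand: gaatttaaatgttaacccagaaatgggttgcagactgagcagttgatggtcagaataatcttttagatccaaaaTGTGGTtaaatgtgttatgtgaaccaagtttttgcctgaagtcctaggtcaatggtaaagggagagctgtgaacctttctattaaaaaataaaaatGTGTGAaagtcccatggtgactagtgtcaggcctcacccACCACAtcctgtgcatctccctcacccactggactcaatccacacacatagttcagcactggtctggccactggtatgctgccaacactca
Il12rb2, chr6:67376139-67376438, minus strand: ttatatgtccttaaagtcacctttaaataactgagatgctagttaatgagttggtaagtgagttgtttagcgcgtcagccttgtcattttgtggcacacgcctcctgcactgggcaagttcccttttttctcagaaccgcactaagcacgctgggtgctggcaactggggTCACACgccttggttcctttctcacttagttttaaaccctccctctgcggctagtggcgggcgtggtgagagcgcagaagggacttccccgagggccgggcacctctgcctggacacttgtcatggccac
Klrk1, chr6:129623815-129624114, minus strand: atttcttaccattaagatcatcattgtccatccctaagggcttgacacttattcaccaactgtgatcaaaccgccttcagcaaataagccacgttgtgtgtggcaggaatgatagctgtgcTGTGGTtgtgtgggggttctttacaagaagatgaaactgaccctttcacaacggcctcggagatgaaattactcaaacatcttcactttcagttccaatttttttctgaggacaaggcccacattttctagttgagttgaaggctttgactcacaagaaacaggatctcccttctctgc
The Ncr1 window held a T-box core 80 bases before the start and RUNX cores 176 and 41 bases before it. A further Ncr1 window, at chr7:4337474-4337773, overlaps it and holds the same cores 89, 185 and 50 bases before its own start. The window of Il12rb2 held a T-box core 80 bases before the start, and that of Klrk1 a RUNX core 129 bases before it. The windows of Ifng, Tbx21 and Eomes held neither core. Of 32851 windows of the same length, 14.5% held a T-box core, 16.8% a RUNX core and 2.92% both. A match describes letters and is not a binding site, and the lack of a match says nothing of the factors.

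Of 21119 barcodes, 20619 cells were kept: 6960 in the knockout-labelled kidney, 5212 in wild-type kidney, 4946 in UUO intestine and 3501 in sham intestine, with medians of 1824 to 2177 unique molecular identifiers (UMIs) per cell. Pdcd1 was counted at 189.6 CPM (a gene's UMIs scaled by all UMIs of the summed cells) over all kept cells of the knockout-labelled kidney, against 126.7 CPM in wild-type kidney. Since a 3′ tag can lie outside a deleted part, this checks nothing about the genotype, and the library is called by its label throughout. The intestinal libraries shared 158 barcodes and other pairs 22 to 27; leaving out the shared intestinal barcodes kept each ratio within its counting error.

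Cells were named from marker genes that exclude the 6 genes, and the 6 genes and all lists described below were also left out of the genes that made the clusters. How markers were counted was decided with the clusters in view, and the names stand for likeness only. ILC1-like cells (1133 in the knockout-labelled kidney, 723 in wild-type kidney) carried 7 of 9 ILC1 markers, among them Cxcr6, Tmem176a and Il7r. NK-like cells (265 and 245 in the same order) carried 10 of 15 NK markers and were led by Ly49 receptor genes such as Klra8. Only 1 kidney cell, of the wild-type library, fell among ILC3-like cells. Although they were sorted as innate lymphoid cells, the kidney libraries also held CD8 T-like (3000 and 514), CD4 T-like (568 and 724) and type 17 T-like cells (427 and 1477). Cells with a UMI of Cd3d, Cd3e or Cd3g occurred in the innate classes too: 744 of 1133 ILC1-like cells (65.7%) of the knockout-labelled kidney and 606 of 723 (83.8%) of wild-type kidney had none. Of NK-like cells, 172 of 265 (64.9%) and 206 of 245 (84.1%) had none. Intestinal ILC3s fell into an NCR/CCR9-like subset (692 cells after UUO, 589 after sham), an LTi-like subset (1633 and 1252) and other ILC3-like cells (1823 and 1271). Ranges in brackets below are exact 95% intervals that cover counting error only. Fewer transcripts per cell and fewer expressing cells cannot be told apart in summed levels. Shares of cells, after each cell was thinned to 1000 UMIs, are therefore given beside the main kidney levels of Eomes, Ncr1 and Ifng. The class levels of Tbx21 and Il12rb2 are given as sums only, and those of Klrk1 mostly so.

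Eomes, the T-box factor of NK cells, was the member that set the ILC1-like apart from the NK-like cells. The ILC1-like cells held 61.5 CPM (52.4 to 71.7) in the knockout-labelled kidney and 54.8 CPM (43.1 to 68.7) in wild-type kidney, and the NK-like cells 830.9 CPM (760.2 to 906.5) and 883.7 CPM (801.7 to 971.9) in the same order. In ILC1-like cells Eomes was thus 13.5-fold and 16.1-fold lower, log2 -3.76 (-4.02 to -3.50) and -4.01 (-4.39 to -3.65). Neither library's intervals overlapped between the classes. When cells of both clusters were re-sorted as ILC1 or NK by single-cell markers, the ratio in wild-type kidney was -3.18. These markers are in the lists that named the clusters, so the re-sorting is not independent of the clusters. Of thinned cells, 4.57% and 3.24% of ILC1-like but 49.8% and 48.7% of NK-like cells had an Eomes UMI. B cell-like cells, which should lack the gene, had it in 3 of 88 (3.41%) and 0 of 88 (exact upper limit 4.11%). Their level was 30.7 CPM (12.4 to 63.3) and 0 UMIs (up to 16.9 CPM), so ILC1-like Eomes was not above the background of the knockout-labelled kidney beyond counting error, and was above it in wild-type kidney. Clustering without Eomes did not keep it out of the genes that lead the NK-like cluster, so the class difference is a description of the clusters.

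CD8 T-like cells came next to NK-like cells in Eomes. They held 278.9 CPM (265.3 to 293.1) in the knockout-labelled kidney and 228.8 CPM (197.3 to 264.0) in wild-type kidney, with a UMI in 19.1% and 21.5% of thinned cells. A small T-like class led by interferon-induced genes such as Ifit3 held 255.4 CPM (195.3 to 328.0) and 140.7 CPM (94.2 to 202.0), intervals that overlap those of CD8 T-like cells in each library. CD4 T-like cells held 30.1 and 7.78 CPM and ILC2-like cells 11.04 and 4.68 CPM, and those of the knockout-labelled kidney were at or below its B cell-like level. Intestinal ILC3s held 1 Eomes UMI among 4148 cells after UUO and 0 among 3112 after sham, with an exact upper limit of 0.552 CPM.

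Tbx21, which encodes T-bet, was spread over ILC1-like, NK-like and CD8 T-like cells. ILC1-like cells held 132.0 CPM (118.6 to 146.5) in the knockout-labelled kidney and 137.4 CPM (118.4 to 158.5) in wild-type kidney. NK-like cells held 165.5 CPM (134.8 to 201.1) and 126.8 CPM (97.0 to 162.9), so the intervals of both innate classes overlapped in each library. The ratio of ILC1-like to NK-like cells was log2 -0.33 (-0.65 to 0.01) and 0.11 (-0.31 to 0.56). CD8 T-like cells were lower, at 92.3 CPM (84.6 to 100.6) and 71.8 CPM (54.7 to 92.6). Within the intestine, NCR/CCR9-like ILC3s held 40.1 CPM (31.7 to 49.9) after UUO and 51.5 CPM (40.8 to 64.2) after sham, other ILC3-like cells 4.37 and 5.15 CPM, and LTi-like cells 1.52 and 1.78 CPM. The intestinal epithelium-like cells, which should lack it, held 0.82 and 5.86 CPM, so Tbx21 stood above that background in the NCR/CCR9-like subset and not in the LTi-like subset.

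Il12rb2, the inducible chain of the interleukin-12 receptor, had the fewest UMIs of the 6 genes over the 4 libraries together, with 107 and 89 UMIs in the knockout-labelled and wild-type kidney and 23 and 29 in UUO and sham intestine. It stood at 24.0 CPM (18.5 to 30.7) and 33.6 CPM (24.6 to 44.8) in ILC1-like cells and at 14.8 CPM (6.74 to 28.0) and 25.0 CPM (12.9 to 43.6) in NK-like cells. The intervals of both classes overlapped in each library, and B cell-like cells had 0 UMIs in both. CD8 T-like cells held 2.13 and 8.52 CPM. A class that carried both ILC1/NK and T cell markers, led by Gzma and Trdc in the intestine, had the highest intestinal levels, 39.8 CPM (19.1 to 73.1) in 82 cells after UUO and 90.4 CPM (51.7 to 146.8) in 63 cells after sham. All ILC3 subsets were under 5 CPM.

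Ncr1, which encodes NKp46, was highest in ILC1-like cells. They held 479.6 CPM (453.7 to 506.6) in the knockout-labelled kidney and 569.9 CPM (530.6 to 611.3) in wild-type kidney. NK-like cells held 373.7 CPM (326.7 to 425.5) and 407.5 CPM (352.5 to 468.8), below the ILC1-like intervals in both libraries, and the ratio of ILC1-like to NK-like cells was log2 0.36 (0.16 to 0.57) and 0.48 (0.26 to 0.72). The intervals stayed apart without cells holding a CD3 UMI, but overlapped in both libraries after re-sorting by single-cell markers. Re-sorted cells held 508.4 CPM (470.4 to 548.7) against 425.6 CPM (367.2 to 490.6) in the knockout-labelled kidney. In wild-type kidney they held 555.9 CPM (505.5 to 610.1) against 445.2 CPM (373.0 to 527.3). An Ncr1 UMI was seen in 34.0% and 40.2% of thinned ILC1-like and in 28.8% and 33.8% of thinned NK-like cells. CD8 T-like cells held 11.2 and 4.87 CPM, against 26.3 CPM and 0 UMIs in B cell-like cells. In the intestine Ncr1 was graded over the ILC3 subsets. The NCR/CCR9-like subset held 222.7 CPM (202.3 to 244.5) after UUO and 263.9 CPM (238.8 to 290.9) after sham, other ILC3-like cells 45.7 CPM (38.9 to 53.5) and 53.2 CPM (44.2 to 63.4), and LTi-like cells 12.2 CPM (9.0 to 16.1) and 16.7 CPM (12.3 to 22.2). No interval overlapped between these subsets within a library. Epithelium-like cells held 7.38 and 12.6 CPM, so the LTi-like level was near the intestinal background.

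Klrk1, which encodes NKG2D, was the most widely detected member and the only one of the 6 with more UMIs in the intestinal than in the kidney libraries. NCR/CCR9-like ILC3s held the highest level, 867.4 CPM (826.8 to 909.5) after UUO and 725.9 CPM (683.9 to 769.8) after sham. Other ILC3-like cells held 671.3 CPM (644.2 to 699.3) and 494.5 CPM (466.3 to 523.8), and LTi-like cells 368.5 CPM (349.8 to 388.0) and 304.7 CPM (284.6 to 325.8). The same grading as for Ncr1 was thus present, but LTi-like cells lay well above the epithelium-like cells at 59.1 and 68.6 CPM. In the kidney, ILC1-like cells held 630.3 CPM (600.6 to 661.2) in the knockout-labelled and 640.7 CPM (599.0 to 684.6) in the wild-type library, and NK-like cells 716.2 CPM (650.6 to 786.6) and 611.3 CPM (543.4 to 685.3). These intervals overlapped in each library, at a ratio of log2 -0.18 (-0.34 to -0.03) and 0.07 (-0.12 to 0.26) for ILC1-like over NK-like cells. CD8 T-like cells held 255.0 CPM (242.0 to 268.5) and 331.0 CPM (292.9 to 372.8), below both innate classes.

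**Figure D1:**
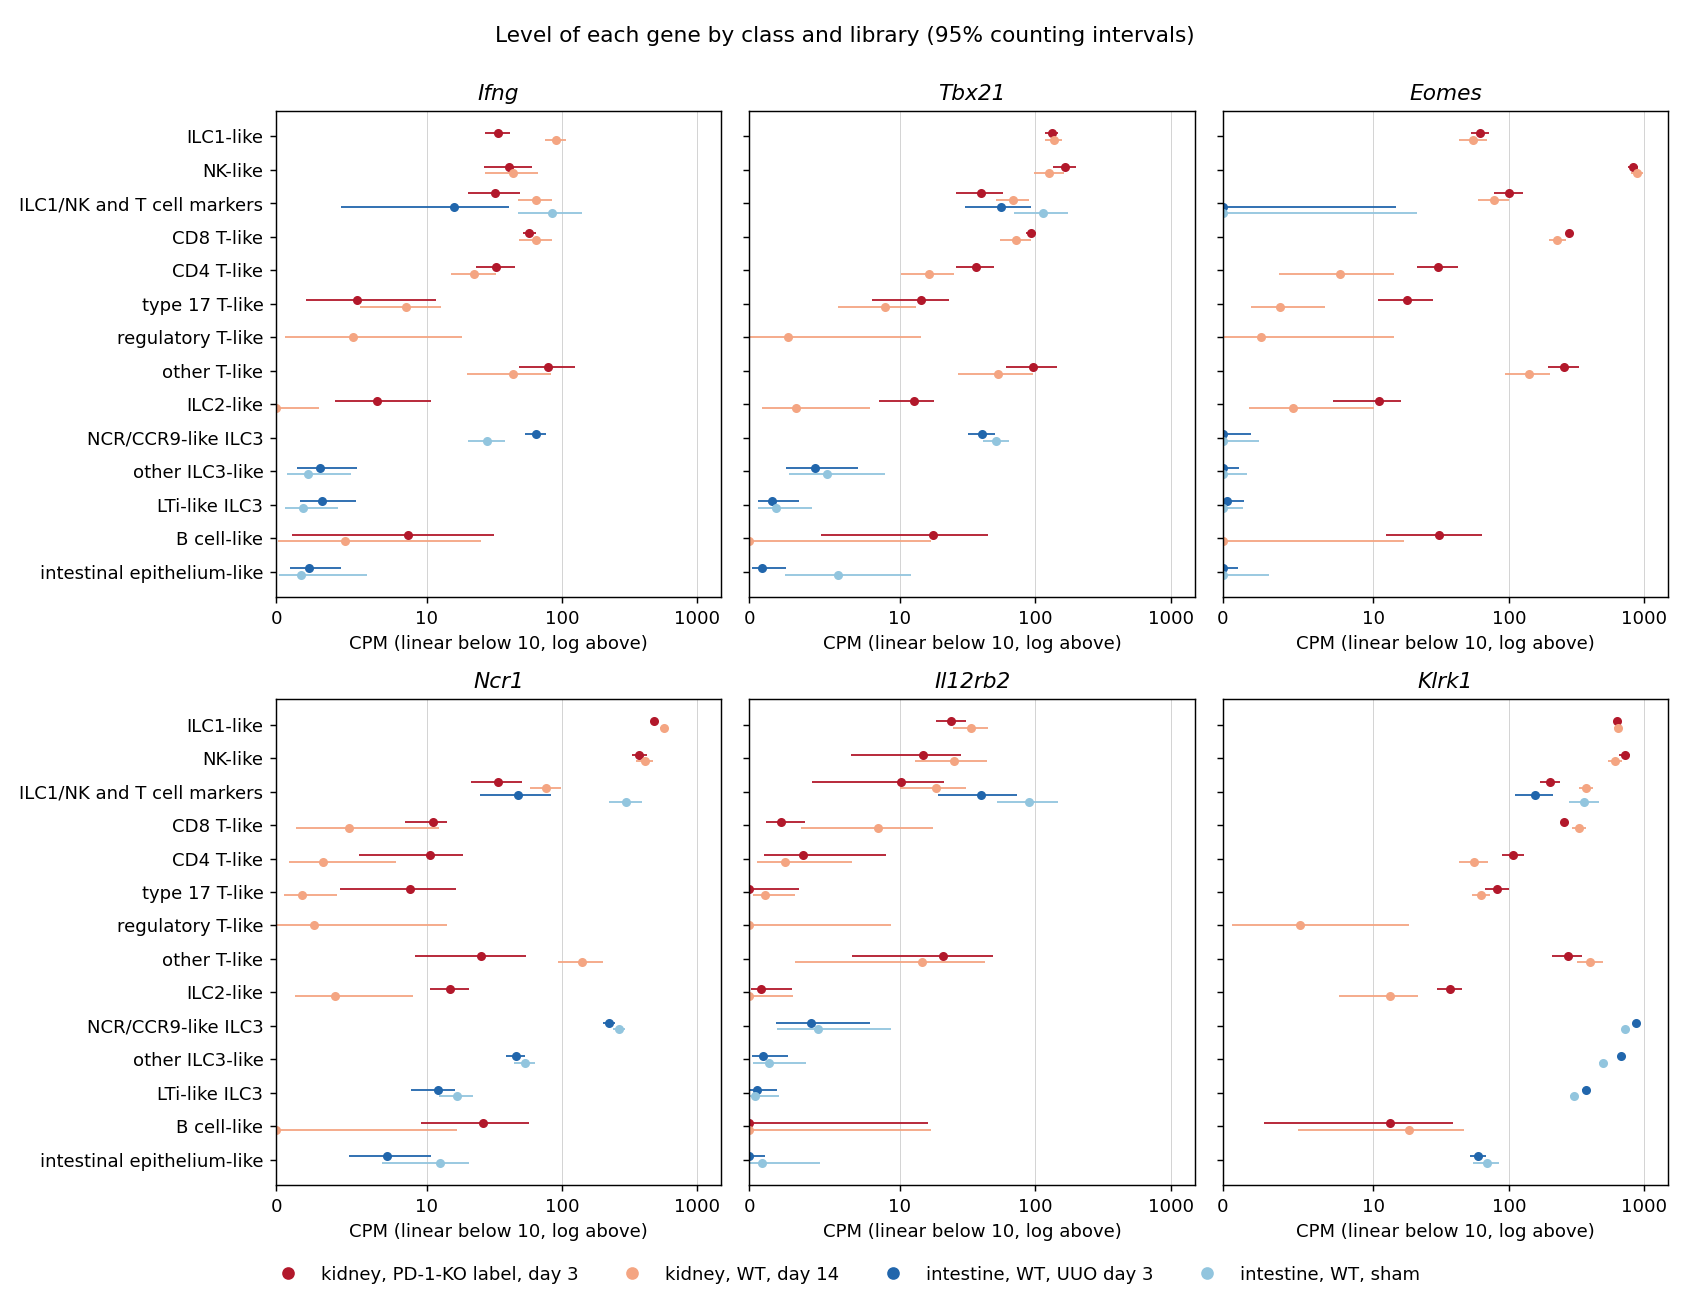
Level of each of the 6 genes in CPM (horizontal axis, linear below 10 and logarithmic above) by cell class (rows) and library (colours), with exact 95% counting intervals. Eomes is high in the NK-like rows, at 830.9 and 883.7 CPM, and near 0 in the ILC3 rows, whereas Klrk1 is high in NK-like, ILC1-like and ILC3 rows alike.

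Ifng, the effector cytokine of the programme, was sparse everywhere: 549 UMIs in the knockout-labelled kidney, 315 in wild-type kidney, 162 in UUO intestine and 76 in sham intestine. CD8 T-like cells held 57.6 CPM (51.5 to 64.2) in the knockout-labelled kidney and 64.5 CPM (48.3 to 84.4) in wild-type kidney. NK-like cells held 41.0 CPM (26.5 to 60.5) and 43.7 CPM (27.0 to 66.8). These pairs overlapped between the libraries. ILC1-like cells held 33.7 CPM (27.1 to 41.5) and 90.6 CPM (75.4 to 108.0), which did not overlap. In the intestine, NCR/CCR9-like ILC3s held 63.9 CPM (53.2 to 76.1) after UUO and 28.0 CPM (20.3 to 37.7) after sham, whereas LTi-like cells held 3.04 and 1.78 CPM, close to the epithelium-like cells at 2.19 and 1.67 CPM. The small intestinal class with both ILC1/NK and T cell markers held 15.9 CPM (4.33 to 40.7) after UUO. After sham it held 84.7 CPM (47.4 to 139.7), the highest intestinal level. The share of thinned cells with an Ifng UMI was 3.20% and 4.42% in ILC1-like cells, 5.02% and 7.61% in CD8 T-like cells, 4.67% and 3.07% in NK-like cells, and 0 of 88 B cell-like cells in each kidney library, with an exact upper limit of 4.11%.

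A few cells held much of the Ifng. The 90 UMIs of ILC1-like cells of the knockout-labelled kidney lay in 71 cells, none with more than 3. In wild-type kidney the 124 UMIs lay in 52 ILC1-like cells, and 47 of them in 1 cell, with 15 in the next. Likewise, the 126 UMIs of NCR/CCR9-like ILC3s after UUO lay in 53 cells, 30 and 20 of them in the highest 2, and the 43 UMIs after sham in 28 cells, of which the highest had 5. The cell with 47 Ifng UMIs had 2291 UMIs in all, among them 28 of Xcl1, 18 of Ccl5, 4 of Ncr1 and 1 of Tbx21, and none of Cd3d, Cd3e or Cd3g. The cell with 30 had 3322 UMIs in all, with 17 of Xcl1 and 3 of Klrk1, and again none of the CD3 genes. CD8 T-like and NK-like cells had at most 5 Ifng UMIs in a cell.

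**Figure D2:**
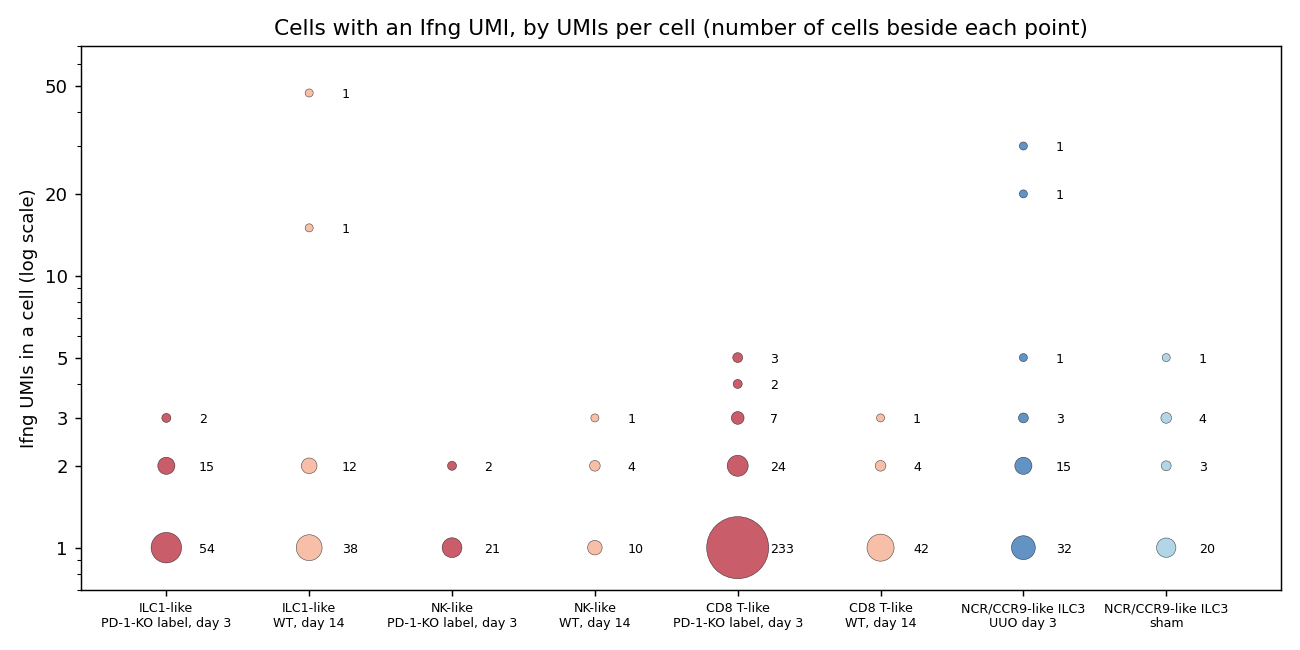
Cells with an Ifng UMI by the number of Ifng UMIs they held (vertical axis, UMIs per cell, logarithmic), by class and library (horizontal axis), with the number of cells beside each point. Most cells held 1 UMI, and the far points are the ILC1-like cell of wild-type kidney with 47 UMIs and the NCR/CCR9-like ILC3s of UUO intestine with 30 and 20.

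The first question set by the classes was which type 1 genes differ between ILC1-like and NK-like cells of the same library. Besides Eomes, the interferon regulator Irf8 was lower in ILC1-like cells, at 604.8 against 1471.8 CPM in NK-like cells of the knockout-labelled kidney (log2 -1.28) and at 606.4 against 1671.8 CPM in wild-type kidney (-1.46). The adaptor gene Tyrobp (log2 -1.39 in the knockout-labelled and -1.20 in wild-type kidney), the receptor gene Klrc2 (-1.35 and -0.75), the chemokine gene Ccl5 (-1.14 and -0.81) and the kinase gene Jak1 (-0.79 and -0.69) were lower in both libraries too. Higher in ILC1-like cells were the adhesion receptor gene Cd226, at 297.7 against 103.3 CPM (log2 1.53) and 366.0 against 110.2 CPM (1.73), the death ligand gene Tnfsf10, which encodes TRAIL (1.69 and 1.16), the interleukin-27 receptor gene Il27ra (1.61 and 1.02), the kinase gene Jak2 (1.54 and 1.04) and the signalling inhibitor Socs1 (0.86 and 0.95). Of the type 2 and type 3 genes, the nuclear receptor gene Rora (2.25 and 2.33), Maf (1.03 and 1.40) and Gata3 (0.93 and 1.004) were all higher in ILC1-like cells. Rora and Tnfsf10 are among the markers that named ILC1-like cells and Irf8 among those that named NK-like cells, so the differences of these 3 follow from the naming.

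Among all genes measured, that is with at least 100 UMIs in both classes together, 9.94% of 5000 were at least 1.5-fold higher and 7% at least 1.5-fold lower in ILC1-like than in NK-like cells of the knockout-labelled kidney; in wild-type kidney these were 9.25% and 4.9% of 3491. Of the members, 5 were measured in each. Eomes was past 1.5-fold in both, and Ifng, at log2 1.05 (0.38 to 1.8), was past it in wild-type kidney, where it stood at 0.05 without cells of 5 or more Ifng UMIs. In the knockout-labelled kidney Ifng stood at -0.28 (-0.93 to 0.42). Of the type 1 cytokine receptors, 3 of 7 measured in the knockout-labelled kidney and 2 of 7 in wild-type kidney were higher and none lower, with medians of log2 0.45 and 0.18. Of the signal transducers, 2 of 10 and 2 of 8 were higher and 1 lower in each, with medians of 0.00 and 0.03. Of the transcription regulators, 2 of 10 were higher and 3 lower in the knockout-labelled kidney, and 1 of 10 higher and 2 lower in wild-type kidney. Of the activating receptors and adaptors, 3 of 12 were higher and 2 lower, and 1 of 11 higher and 2 lower. Interferon-gamma target genes were higher in 3 of 8 and 1 of 6, with none lower, and effector genes higher in 3 of 7 and 2 of 7, with 2 lower in each. Of the type 2 and type 3 genes, 3 of 4 and 4 of 4 were higher. The list counts include Tnfsf10 (effectors), Irf8 (transcription regulators) and Rora (type 2 and type 3 genes), whose differences follow from the naming. No gene of the ligand list or of the NKG2D ligands was measured in either library. All genes measured had a median of 0.00 and 0.01.

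**Figure D3:**
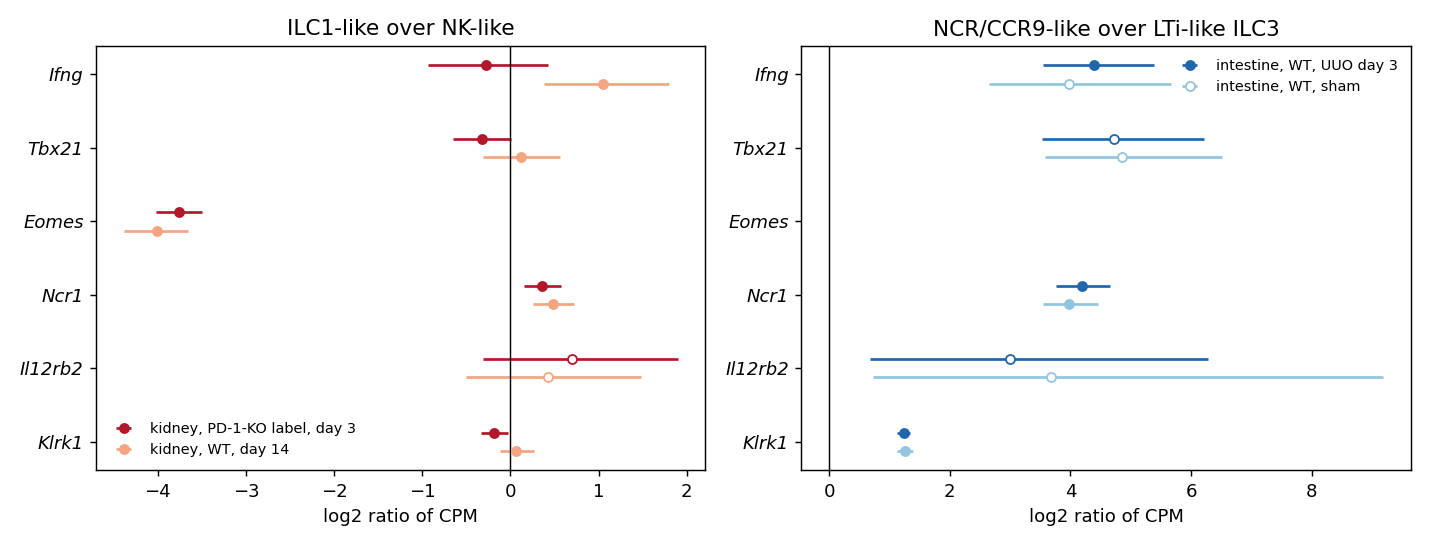
Log2 ratio of the 6 genes, ILC1-like over NK-like cells in the kidney libraries and NCR/CCR9-like over LTi-like ILC3s in the intestinal libraries, with exact 95% counting intervals. Open points are below the minimum of 100 UMIs. Eomes lies at -3.76 and -4.01 and Ncr1 at 0.36 and 0.48 in the kidney, and Ncr1 at 4.19 and 3.98 in the intestine.

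Set against wild-type kidney at day 14, the knockout-labelled kidney at day 3 held lower Ifng and slightly lower Ncr1 in ILC1-like cells, while the intervals of the other 4 members spanned 0 on the log2 scale. Ifng was 2.68-fold lower, log2 -1.42 (-1.83 to -1.02), and 4.93% of the 5623 genes measured were at least 1.5-fold lower and 3.91% at least 1.5-fold higher. That value rested on few cells: it was -0.79 (-1.25 to -0.32) without the highest cell of each library, and -0.42 (-0.91 to 0.07) without the 2 cells with 5 or more Ifng UMIs, both of wild-type kidney. The share of thinned cells gave -0.46 (-1.21 to 0.29). Without cells holding a CD3 UMI, Ifng stood at 33.7 against 99.6 CPM. Ncr1 was at log2 -0.25 (-0.38 to -0.12), and the intervals of Tbx21 (-0.06, -0.32 to 0.21), Eomes (0.17, -0.24 to 0.58), Il12rb2 (-0.49, -1.05 to 0.09) and Klrk1 (-0.02, -0.14 to 0.10) were those that spanned 0. The 12 T cell markers, all detected, summed to 2348 CPM in ILC1-like cells of the knockout-labelled kidney and 2046 CPM in wild-type kidney. The 8 B cell markers summed to 384.0 CPM with all 8 detected and to 1081 CPM with Ms4a1 at 0, and their part in the result was not tested.

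Of the other lists in ILC1-like cells, few genes passed 1.5-fold. Effector genes were lower in 3 of 7 measured: Ifng, Tnfsf10 at 74.3 against 153.4 CPM (log2 -1.05) and the chemokine gene Ccl4 at 185.6 against 295.2 CPM (-0.67). The signal transducer Tyk2, a kinase below the interleukin-12 receptor, was higher at 58.1 against 35.1 CPM (0.73), as was Stat5a, which lay under 50 CPM and was named after its value was seen. The adhesion receptor gene Crtam was higher at 55.5 against 24.1 CPM (1.20), 1 of 12 activating receptors. None of the 8 cytokine receptors, 10 transcription regulators and 9 interferon-gamma target genes measured passed 1.5-fold in either direction, with medians of -0.01, -0.10 and 0.02 next to -0.05 for all genes, nor did the 4 type 2 and type 3 genes (0.20). The transcription regulator Bhlhe40 came nearest, at 1345 against 905.9 CPM (0.57).

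In NK-like cells the measured members of the knockout-labelled kidney lay within 1.5-fold of wild-type kidney. Eomes stood at log2 -0.09 (-0.28 to 0.10), Ncr1 at -0.13 (-0.41 to 0.16), Tbx21 at 0.38 (-0.09 to 0.87) and Klrk1 at 0.23 (0.01 to 0.45). For Tbx21 the share of thinned cells gave the other sign, -0.17. Ifng had 25 and 21 UMIs, too few for a ratio. None of the 4 members measured passed 1.5-fold, where 3.67% of 2177 genes did so upward and 3.49% downward. The interleukin-18 receptor gene Il18rap was higher at 270.4 against 139.3 CPM (0.96), as was Cd274, which encodes PD-L1, at 149.1 against 87.3 CPM (0.77), and the receptor gene Slamf7 was lower at 95.1 against 149.7 CPM (-0.66).

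CD8 T-like cells showed more genes past 1.5-fold, 7.26% of 6791 higher and 5.51% lower, though none of the 4 members measured. Eomes was at log2 0.29 (0.07 to 0.51), which turned to -0.17 in the share of thinned cells, Tbx21 at 0.36 (-0.03 to 0.78), Ifng at -0.16 (-0.59 to 0.28) and Klrk1 at -0.38 (-0.56 to -0.18). Transcription regulators were higher in 3 of 12: the regulator Tox at 348.9 against 169.2 CPM (1.04), Bhlhe40 at 933.4 against 510.0 CPM (0.87) and Irf1 at 295.6 against 196.0 CPM (0.59). Interferon-gamma targets were higher in 4 of 11, Irf1 and Cd274 (93.03 against 57.2 CPM, 0.70) among them, with a list median of 0.38 next to -0.02 for all genes. Activating receptors were lower in 3 of 11, Klrc2 at 24.6 against 73.0 CPM (-1.57), Cd226 at 147.4 against 254.4 CPM (-0.79) and Cd160 at 36.3 against 59.6 CPM (-0.72). Effectors were lower in 3 of 7, the chemokine gene Xcl1 at 180.4 against 311.6 CPM (-0.79), Ccl4 at 139.3 against 220.3 CPM (-0.66) and Tnfsf10 at 47.0 against 74.2 CPM (-0.66). Each of these list values comes from 3000 cells of the knockout-labelled and 514 of the wild-type kidney.

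Klrk1 was the only member measured in CD4 T-like and ILC2-like cells. CD4 T-like cells held 108.1 CPM (89.8 to 129.1) in the knockout-labelled and 55.2 CPM (43.1 to 69.6) in wild-type kidney, log2 0.97 (0.54 to 1.41), where 4.59% of 4118 genes were at least 1.5-fold higher and 7.21% lower. ILC2-like cells held 36.7 CPM (29.6 to 44.9) and 13.3 CPM (7.7 to 21.2), log2 1.47 (0.71 to 2.31), where 5.37% of 5136 genes were higher and 2.9% lower. Other transcripts of NK cells moved with it in ILC2-like cells: the 14 ILC1/NK markers summed to 323.1 against 136.5 CPM, and their part in the result was not tested. B cell-like cells held Klrk1 at 13.2 CPM (2.72 to 38.5) and 18.3 CPM (4.98 to 46.8). These intervals are wide, as they rest on 3 and 4 UMIs. Both ILC2-like levels lay within them and cannot be told apart from the B cell-like level. Both CD4 T-like levels lay above them, but in wild-type kidney the CD4 T-like and B cell-like intervals overlapped. The class with dendritic cell and monocyte/macrophage markers held Klrk1 at 56.9 CPM (38.9 to 80.3) and 50.5 CPM (27.6 to 84.7). The CD4 T-like level lay above that interval in the knockout-labelled kidney and within it in wild-type kidney. In the kidney class with both ILC1/NK and T cell markers, Klrk1 was lower at 200.9 against 373.1 CPM, log2 -0.89 (-1.20 to -0.59), together with 8 of 10 activating receptors and adaptors (list median -0.97; 9.16% of all genes were lower and 3.82% higher), among them Fcer1g at 376.8 against 979.2 CPM (-1.38). Effectors were lower in 3 of 4 there, with Xcl1 at 236.1 against 775.0 CPM (-1.71). That class held 275 and 409 cells and was led by Klra1, Klra7 and Trdc.

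The chemokine genes Ccl5 and Xcl1 were higher in several kidney classes of the knockout-labelled library. CD4 T-like cells held Ccl5 at 748.9 against 259.7 CPM (log2 1.53) and Xcl1 at 113.4 against 39.7 CPM (1.52), and ILC2-like cells held Xcl1 at 62.7 against 31.2 CPM (1.01) and Fcer1g at 95.1 against 36.7 CPM (1.37). Type 17 T-like cells held Ccl5 at 434.8 against 104.8 CPM (2.05) and Xcl1 at 54.5 against 24.5 CPM (1.15), with Klrk1 at 0.39, where 3.37% of genes were at least 1.5-fold higher and 8.42% lower. B cell-like cells, which should lack these genes, showed the same direction: Ccl5 stood there at 465.3 CPM (380.9 to 562.7) against 54.8 CPM (28.3 to 95.8), Xcl1 at 87.8 CPM (53.6 to 135.6) against 32.0 CPM (12.9 to 65.9), and Fcer1g at 79.0 CPM (46.8 to 124.9) against 54.8 CPM (28.3 to 95.8). The Xcl1 levels of CD4 T-like, type 17 T-like and ILC2-like cells lay within these B cell-like intervals in both libraries. The same held for the Fcer1g levels of ILC2-like cells, and none of these levels can be told apart from the B cell-like level. Ccl5 of type 17 T-like cells lay within the interval in the knockout-labelled kidney and above it in wild-type kidney, and Ccl5 of CD4 T-like cells lay above it in both.

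Regulators and targets varied by T-like class. CD4 T-like cells had higher Bhlhe40, at 1385 against 667.9 CPM (1.05), and higher Tox, at 109.0 against 59.1 CPM (0.88), as CD8 T-like cells did, and lower Prdm1, which encodes BLIMP-1, at 50.5 against 100.3 CPM (-0.99). Their Ifngr2 stood at 71.8 against 212.3 CPM (-1.56). In type 17 T-like cells Irf1 was higher, at 172.3 against 90.2 CPM (0.93). The T-like class led by interferon-induced genes had 4 of 8 interferon-gamma targets higher and none lower, with a median of 0.52, Gbp2 at 916.8 against 417.1 CPM (1.14) and Cxcl10 at 962.8 against 465.6 CPM (1.05) among them; 6.15% of 845 genes measured there were higher and 5.44% lower, and Klrk1 stood at -0.55.

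**Figure D4:**
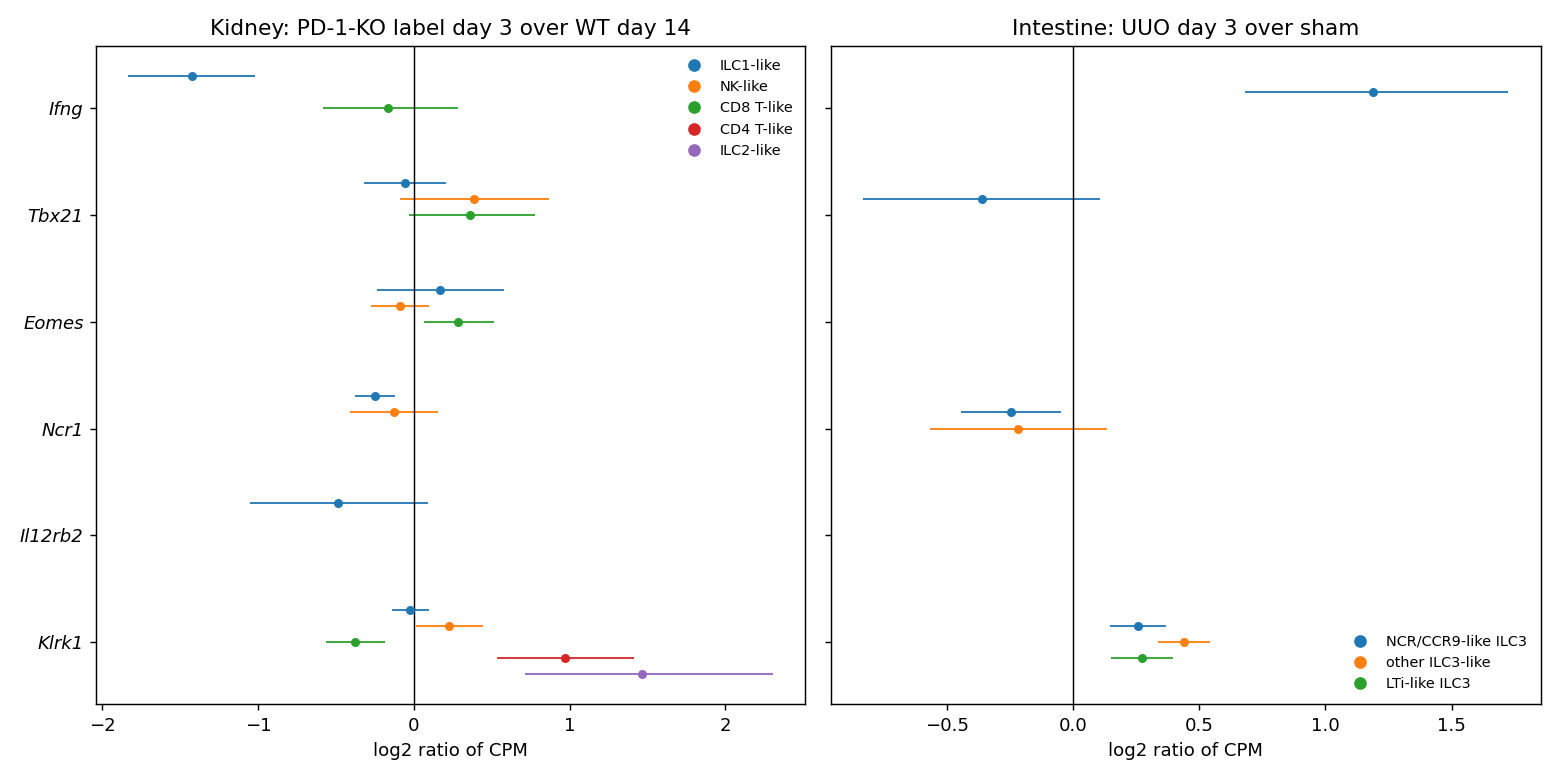
Log2 ratio of each measured member, knockout-labelled kidney (day 3) over wild-type kidney (day 14) by kidney class and UUO over sham intestine by ILC3 subset, with exact 95% counting intervals. Ifng lies lowest in ILC1-like cells, at -1.42, and highest in NCR/CCR9-like ILC3s, at 1.19.

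Within the intestine, NCR/CCR9-like ILC3s held higher levels of all measured members than LTi-like ILC3s in both libraries, a comparison added after the data had been seen. Ncr1 was at log2 4.19 (3.76 to 4.66) after UUO and 3.98 (3.54 to 4.45) after sham, and Klrk1 at 1.23 (1.13 to 1.34) and 1.25 (1.12 to 1.38). Ifng was at 4.39 (3.54 to 5.38) after UUO; after sham it had 43 against 5 UMIs, under the 100 needed. With coarser clusters (resolution 0.6) Ncr1 stood at 3.42 and 3.49 and Ifng after UUO at 3.32. Tbx21 had 79 against 6 UMIs after UUO and 79 against 5 after sham. Of all genes measured, 10.2% of 6876 were at least 1.5-fold higher and 12% lower after UUO, and 10.3% of 5963 and 11.8% after sham. The clusters were made without the members, and the subset was named from Ccr9, Klrb1c, Xcl1, Cxcr3 and Cd226.

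Activating receptors and adaptors were higher in 9 of 10 after UUO (list median log2 2.12) and in 7 of 9 after sham (2.40), led by Klrb1c (4.17 and 2.98) and the receptor gene Cd244a (2.67 and 2.66). Effectors were higher in 6 of 7 (3.31) and 5 of 6 (2.61), among them the death ligand gene Fasl at 70.0 against 0.76 CPM (6.52) and 63.9 against 2.13 CPM (4.90), and Xcl1 (4.32 and 3.65). Interferon-gamma targets were higher in 5 and lower in 1 of 10 (median 0.79) after UUO, and higher in 8 and lower in 1 of 10 (1.20) after sham. Upstream of these, the constant chain of the interleukin-12 receptor, Il12rb1, stood at 80.1 against 22.6 CPM (1.83) and 80.2 against 16.7 CPM (2.26). Lower in the NCR/CCR9-like subset were the interferon-gamma receptor chain Ifngr2 (-1.49 and -1.82) and the inhibitors Socs1 (-1.48 and -1.38) and Socs3 (-1.10 and -1.27). Cytokine receptors were higher in 4 and lower in 1 of 8 in each library, and regulators higher in 4 of 11 and 4 of 10, with 1 and 0 lower and medians of 0.05 and 0.20. Of the signal transducers, 2 and 3 of 10 were lower, with medians of 0.16 and -0.11. Of the type 2 and type 3 genes, 2 of 6 and 1 of 6 were higher, with medians of 0.01 and 0.06. Klrb1c, Xcl1 and Cd226 are in these lists and also named the subset, so their height there follows from the naming.

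Between UUO and sham intestine, the question of the design was whether ILC3s differ 3 days after obstruction of the ureter. Over all ILC3s, 4148 after UUO and 3112 after sham, Klrk1 was slightly higher and Ncr1 slightly lower, log2 0.32 (0.26 to 0.39) and -0.32 (-0.49 to -0.16), both short of 1.5-fold. Tbx21 stood at -0.43 (-0.85 to -0.01) and Ifng at 0.996 (0.53 to 1.48), the only 1 of 4 measured members past 1.5-fold, where 3.34% of 9107 genes were higher and 1.17% lower. Without cells of 5 or more Ifng UMIs it was 0.47, and by the share of thinned cells 0.25. Klrk1 was higher in each subset, at 0.26 (0.15 to 0.37) in NCR/CCR9-like, 0.44 (0.34 to 0.54) in other ILC3-like and 0.27 (0.15 to 0.40) in LTi-like cells. Epithelium-like cells of both intestinal libraries had it at -0.22 (-0.59 to 0.17), where 8.35% of all genes were at least 1.5-fold higher and 8.24% lower. The share of thinned ILC3s with a Klrk1 UMI was 37.2% after UUO and 31.6% after sham. Ncr1 was at -0.25 (-0.44 to -0.05) in NCR/CCR9-like cells and -0.22 (-0.57 to 0.13) in other ILC3-like cells.

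NCR/CCR9-like cells held 126 of the 148 Ifng UMIs of ILC3s after UUO and 43 of 53 after sham, and their Ifng ratio was log2 1.19 (0.68 to 1.72); 2.51% of the 5262 genes measured there were at least 1.5-fold higher and 1.52% lower. Without the highest cell of each library the levels were 48.7 CPM (39.4 to 59.5) and 24.8 CPM (17.5 to 34.0). Without cells of 5 or more Ifng UMIs, 3 of which held 55 of the 126 UMIs after UUO, the ratio was 0.54 (-0.05 to 1.15). The share of thinned cells, 3.58% (2.31 to 5.28%) against 2.78% (1.60 to 4.48%), overlapped, at log2 0.36 (-0.61 to 1.37). In NCR/CCR9-like ILC3 cells the T cell markers summed to 1326 CPM with 10 of 12 detected after UUO (Cd5 and Cd6 at 0) and to 1432 CPM with 11 of 12 after sham (Cd6 at 0). Of the ILC1/NK markers, 10 of 14 were detected in each library, at 1769 and 1866 CPM, and the Ly49 genes Klra4, Klra7, Klra8 and Klra9 were at 0 in both.

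No other measured effector of NCR/CCR9-like cells was at least 1.5-fold higher after UUO, and 4 of the 7 measured lay within 1.5-fold. The growth factor gene Csf2 was lower at 238.4 CPM after UUO against 405.3 CPM after sham (log2 -0.77), and the chemokine gene Ccl3 at 26.4 against 50.2 CPM (-0.93), so 1 of 7 effectors was higher and 2 were lower. The interferon-induced chemokine gene Cxcl10 was lower at 132.9 against 234.6 CPM (-0.82), the only 1 of 10 interferon-gamma targets past 1.5-fold, and Klrb1c was higher at 210.0 against 126.4 CPM (0.73), 1 of 11 activating receptors. None of the 8 cytokine receptors, 10 signal transducers and 11 transcription regulators measured passed 1.5-fold, with medians of 0.03, 0.07 and -0.15. LTi-like cells held Csf2 at 35.5 against 62.2 CPM (-0.81), where 3.06% of genes were higher and 1.43% lower, and other ILC3-like cells at 119.4 against 193.0 CPM (-0.69), where 3.05% and 1.36% were. Tnf, which encodes tumour necrosis factor, was higher in other ILC3-like cells at 97.9 against 64.8 CPM (0.60). Over all ILC3s, 1 of 69 measured list genes, Ifng, was higher, and 3 were lower: Csf2, at 109.1 against 186.7 CPM (-0.78), and Ccl3 and Ccl4, which lay under 50 CPM and were named after their values were seen. None of the 2 NKG2D ligands (median -0.36) and 12 interferon-gamma targets (0.10) measured over all ILC3s passed 1.5-fold, nor did the 1 gene of the ligand list (0.08).

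The small intestinal class with both ILC1/NK and T cell markers, 82 cells after UUO and 63 after sham, was too small for ratios, and its values are a description. Ncr1 stood there at 47.7 CPM (24.7 to 83.4) after UUO against 299.4 CPM (224.2 to 391.6) after sham, and Klrk1 at 155.1 CPM (110.3 to 212.0) against 361.5 CPM (278.4 to 461.6), without overlap of the intervals. In thinned cells, Ncr1 was seen in 4 of 73 after UUO (5.48%, 1.51 to 13.4%) and in 13 of 61 after sham (21.3%, 11.9 to 33.7%), and Klrk1 in 10 of 73 (13.7%, 6.77 to 23.8%) and 18 of 61 (29.5%, 18.5 to 42.6%), and both pairs of shares overlapped. Tbx21 stood at 55.7 CPM (30.4 to 93.4) against 113.0 CPM (69.0 to 174.5) and Eomes had 0 UMIs in both. Ifng stood at 15.9 CPM (4.33 to 40.7) after UUO against 84.7 CPM (47.4 to 139.7) after sham, without overlap. These Ifng levels rest on 4 and 15 UMIs, and their direction is opposite to that in NCR/CCR9-like ILC3s.

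Counting members per cell showed how seldom the programme was seen together. After thinning, 29.5% of ILC1-like cells of the knockout-labelled kidney and 27.7% of wild-type kidney had a UMI of none of the 6 genes, against 12.1% and 14.5% of NK-like, 57.2% and 52.8% of CD8 T-like, and 92.05% and 98.9% of B cell-like cells. UMIs of at least 2 members were found in 24.8% and 27.8% of ILC1-like, 48.2% and 44.7% of NK-like and 7.76% and 10.5% of CD8 T-like cells. NCR/CCR9-like ILC3s had at least 2 in 14.6% of cells after UUO and 14.4% after sham, LTi-like cells in 0.87% and 0.56%. No thinned cell had 5 or 6, and 4 were found in 5 and 2 ILC1-like cells, in 3 and 5 NK-like cells and in 1 wild-type kidney cell of the class with both ILC1/NK and T cell markers. Eomes is among the 6 genes, and a far larger share of NK-like than of ILC1-like thinned cells had an Eomes UMI. The counts were not repeated without Eomes. They therefore do not show that NK-like cells held more of the other members.

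**Figure D5:**
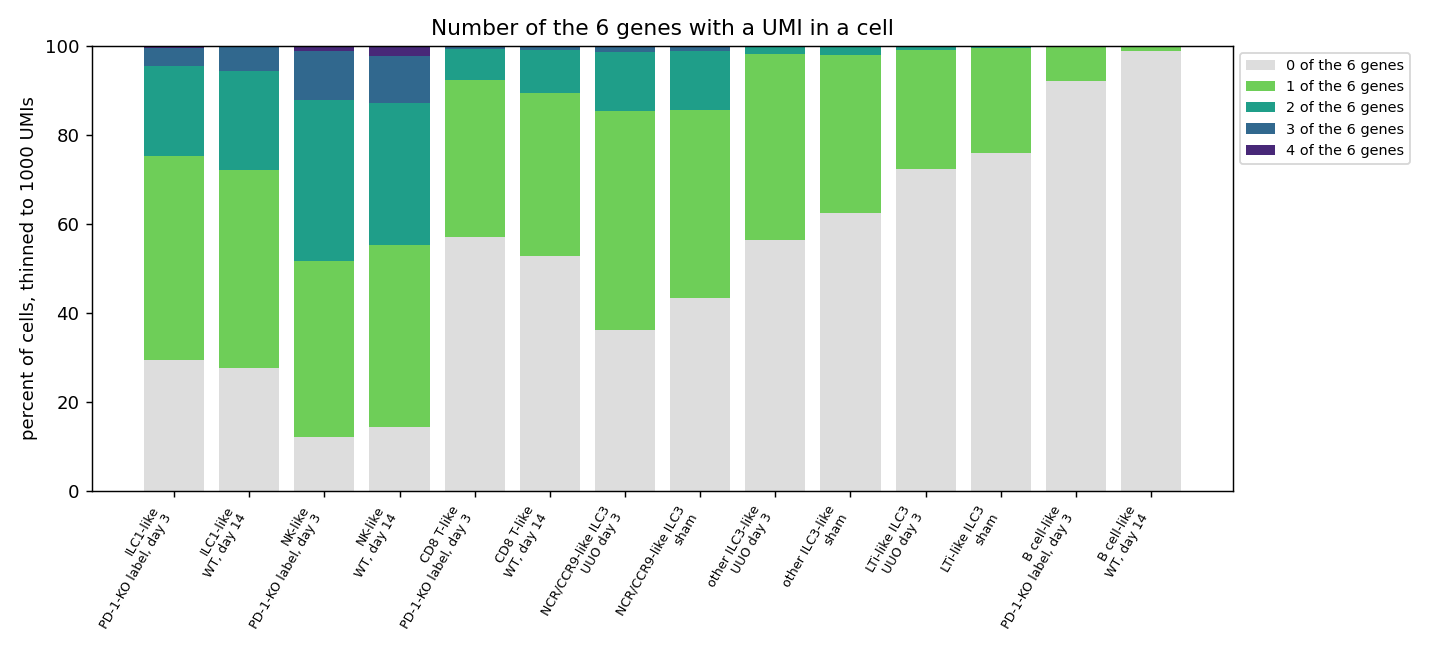
Percent of cells (vertical axis) with a UMI of 0, 1, 2, 3 or 4 of the 6 genes after thinning to 1000 UMIs, by class and library. Cells with none make up 12.1% and 14.5% of NK-like and 92.05% and 98.9% of B cell-like cells.

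For most pairs of members in a class, shares with and without the partner could not be told apart beyond counting error. Over the 15 pairs of members and 18 sets of a class in a library, the intervals of the share with and without the partner separated for 4 pairs. Where no cell of a set had a member, its pairs could not be scored, as for Eomes in nearly all intestinal sets. Several groups with the partner were small, so overlap does not show that members were detected independently. In NK-like cells an Eomes UMI was seen in 15 of 31 cells with Tbx21 (48.4%) and in 113 of 226 without (50%) in the knockout-labelled kidney, and in 12 of 31 (38.7%) and 99 of 197 (50.3%) in wild-type kidney. In ILC1-like cells Klrk1 was seen in 163 of 372 cells with Ncr1 (43.8%) and 325 of 721 without (45.1%), and in 123 of 273 (45.1%) and 172 of 406 (42.4%). Tbx21 was seen in 7 of 35 ILC1-like cells with Ifng (20%) against 11.5% without in the knockout-labelled kidney, and in 7 of 30 (23.3%) against 10.9% in wild-type kidney, with overlapping intervals. The pairs that separated were Ncr1 with Klrk1 in LTi-like ILC3s after UUO (13 of 20, 65.0%, against 425 of 1598, 26.6%), the same pair in the sham class with both ILC1/NK and T cell markers (10 of 13, 76.9%, against 8 of 48, 16.7%), and Tbx21 with Ncr1 (6 of 30, 20%, against 15 of 355, 4.23%) and with Klrk1 (16 of 30, 53.3%, against 93 of 355, 26.2%) in that class of wild-type kidney. That class mixes markers of several cell types, and at 1000 UMIs a missing UMI does not show that a cell lacks the transcript.

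Cells with an Ifng UMI were also set against other cells of their class for the genes of the lists, 957 comparisons of which 6 had separate intervals. In ILC1-like cells of the knockout-labelled kidney these were the adaptor gene Fcer1g (32 of 35 cells, 91.4%, against 73.8%) and Ccl4 (8 of 35, 22.9%, against 6.99%). CD8 T-like cells of the same library had them for Id2 (72 of 141, 51.1%, against 36.9%) and Zbtb16 (3 of 141, 2.13%, against 0.19%). The others were Ccl3 in NCR/CCR9-like ILC3s after UUO (3 of 24, 12.5%, against 1.24%) and Ccl5 in CD4 T-like cells of wild-type kidney (5 of 14, 35.7%, against 9.39%). The same gene did not separate in both libraries of an organ in any of these.

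Across 34 profiles of a class in a library, the genes whose levels ran most like each member were found by Pearson's r of log2(CPM + 10) among 8075 genes. These profiles share libraries and depth, so r is a description. Tbx21 ran closest with the NK receptor gene Klrc1 (r 0.96), the granule gene Nkg7 (0.95), Xcl1, Fasl and Ctsw (0.94 each). Ifng ran closest with Fasl (0.93), Tbx21 itself (0.91), Klrc1 (0.89), Nkg7 and Ctsw (0.87 each). Eomes had Samd3 (0.90), Ifitm10 (0.88), Gm2682 (0.85), Sh2d1a and Nod1 (0.84 each) next to it, and Ncr1 had Klri2 and Klrb1c (0.91 each), Serpinb9 (0.85), Cd244a (0.84) and Xcl1 (0.83). Klrk1 was nearest to Serpinb9 (0.87), Txk, Serpinb6b and Il2rb (0.85 each) and Cd160 (0.84), and Il12rb2 to Klrb1a (0.79), Tiprl, Itgad, Ttc7b and Gzma (0.77 each). Between members, r was 0.91 for Ifng with Tbx21, 0.76 for Ncr1 with Klrk1, 0.74 for Tbx21 with Eomes and 0.38 for Eomes with Ncr1. Over the 22 kidney profiles alone it was 0.89, 0.77, 0.89 and 0.61 in that order, and Tbx21 with Klrk1 stood at 0.94 there against 0.65 over all 34. The nearest genes depend on the profiles: over the kidney profiles alone, 3 of the 5 named for Tbx21, 2 for Ncr1, 1 each for Ifng and Eomes and 0 each for Klrk1 and Il12rb2 were among the nearest 5 again.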

How the data were processed

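Single-cell libraries of sorted mouse kidney and intestinal cells were read as deposited UMI counts per gene and cell. The authors' steps before deposit used, per the submitters' processing notes, the mm10 genome with CASAVA 1.8, Seurat and UMI-tools. No source used here gives the aligner, the annotation, the strand setting or how cells were called. Of 5 libraries, 4 with a count matrix were analysed. Wild-type kidney of day 14 came without gene names and was given those of the other 3 libraries, which have 1 common gene list. Its levels correlated with those of the knockout-labelled kidney across genes at 0.992, and at 0.209 with genes shifted by 1 place. Identifiers matched GENCODE vM21 for 31107 of 31253 genes.

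Cells with at least 500 UMIs, 250 genes and at most 20% mitochondrial UMIs were kept. Total depth was 16466027 UMIs in the knockout-labelled kidney, 10362652 in wild-type kidney, 14756545 in UUO intestine and 8717372 in sham intestine. Clustering used all kept cells at once, with no batch integration, on 2000 variable genes that excluded the members and the 9 gene lists, followed by 30 principal components, a graph of 15 neighbours and Leiden clustering (resolution 1, seed 1). Clusters took names from 26 marker lists, needing at least 3 markers at 2 times the level of other cells and a UMI in 10% of the cells; this count was settled after the clusters had been seen. Scrublet called 0 to 6 doublets per library, under 0.5% of cells, so it did not work here and doublets were not removed; leaving out cells above 3 times the median UMIs was tried in its place.

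UMIs were summed per class and library (CPM, classes of at least 50 cells; ratios in classes of at least 100 cells and for genes of at least 100 UMIs). Levels have exact Poisson, shares exact binomial (Clopper-Pearson) and log2 ratios exact conditional binomial 95% intervals. Cells were thinned once to 1000 UMIs, leaving out 376, 361, 577 and 269 shallower cells in the order above. The ratio and thinning steps were tested on simulated data. Genes named are the 6 members, up to 4 per list and comparison with the largest ratio and at least 50 CPM, the 5 most like each member, Pdcd1 and markers that check a class. The lists were type 1 ligands, cytokine receptors, signal transducers, transcription regulators, activating NK receptors and adaptors, NKG2D ligands, effectors, interferon-gamma targets, and type 2 and type 3 genes. Members and lists were chosen with earlier results of these data known. The values of 1 list gene are not reported here. Tools were Python 3.11.15, NumPy 2.4.6, SciPy 1.17.1, pandas 2.3.3, scanpy 1.11.5, igraph 0.11.9, scikit-learn 1.9.0 and matplotlib 3.10.9.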

Additional observations from a re-analysis of the deposited data

How the results depend on the processing

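Of 477 values of 42 member ratios under the alternatives, 445 stayed within the counting error of the value reported, 32 moved beyond it, and no ratio past 1.5-fold changed sign. Other size factors, a minimum of 1000 UMIs, at most 10% mitochondrial UMIs, CD3 gates, leaving out shared intestinal barcodes and leaving out the deepest cells moved none. Clustering with members and list genes among the variable genes moved 4 and resolution 1.5 moved 3, all of them Klrk1 or Ncr1 ratios of ILC3 subsets with their direction kept. Shares of thinned cells put Eomes of ILC1-like over NK-like cells at log2 -3.44 in the knockout-labelled kidney, Ifng of ILC1-like cells (knockout-labelled over wild-type kidney) at -0.46, Ifng of NCR/CCR9-like ILC3s (UUO over sham) at 0.36 and Klrk1 of all ILC3s at 0.24. Without cells of 5 or more Ifng UMIs the Ifng values were -0.42 and 0.54, and without the highest cell -0.79 in ILC1-like cells. Re-sorting the cells of the ILC1-like and NK-like clusters by single-cell markers gave -3.18 for Eomes in wild-type kidney. At clustering resolution 0.6, Ncr1 of NCR/CCR9-like over LTi-like ILC3s was 3.42 after UUO and 3.49 after sham, and other ILC3-like cells gave no value. Counts of list genes depend on the minimum: with at least 20 UMIs or at least 1 UMI in each library, 7 list genes were higher in ILC1-like cells of the knockout-labelled kidney in place of 3, and a fold of 2 left 1; with at least 1 UMI in each, 8 were lower in place of 3. Over all ILC3s, 2 (at least 20 UMIs), 3 (at least 1 UMI) and 0 (fold of 2) were higher after UUO in place of 1, and 5, 6 and 1 were lower in place of 3. The number of list genes measured and the share of all genes past the fold also depend on these settings and are not given here. These counts therefore show only that the number depends on the setting, and say nothing of the lists. Beyond the effect of the removed cells or genes, the cause was not tested. No paired analysis was possible because each group is 1 library. Between libraries, Ifng in NK-like cells and Il12rb2 outside ILC1-like cells had too few UMIs to compare. Il12rb2 also had too few for a ratio of ILC1-like to NK-like cells within a library.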
